A study of Mus musculus with 12 samples.

Results

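H3K27me3 islands of adult Lgr5-positive intestinal stem cells (ISC) were compared with those of enterocytes (AE), which line the villus and absorb nutrients, both from the adult mouse small intestine. The members are the 200 bp windows of the mm9 genome that lay in an island of at least 1 of the 4 adult ChIP lists, 1423802 windows of the 1860461 called in any of the 8 lists of the series. A window was gained when both AE lists and neither ISC list called it, lost in the reverse case, and kept when all 4 lists called it. Neighbouring windows of a class were joined into stretches. This gave 1244 gained, 3620 lost and 3887 kept stretches.

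Both populations came from small intestines of Lgr5EGFP-Cre-ERT males of a mixed C57BL/6 CD1 strain at postnatal day 60, per the labels. Stem cells were sorted for high Lgr5-EGFP, and enterocytes as EpCAM-positive, CD31-negative, CD45-negative living cells, a gate that names no marker particular to the villus. The series title places the comparison in the differentiation of adult intestinal stem cells. Each population had 2 ChIP libraries, which the series design calls biological duplicates, and 1 input library that served as control. How many animals stood behind a library is not given in the labels.

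H3K27me3 is trimethylation of lysine 27 of histone H3. It is placed by Polycomb repressive complex 2, read by Polycomb repressive complex 1, and covers silent genes in broad domains, among them developmental regulators of other tissues. Intestinal stem cells at the crypt base divide and feed progenitors that leave the cycle as they move onto the villus. Enterocytes, the absorptive lineage, are the most numerous cells of the villus epithelium. The island lists carry no gene names and no mm9 annotation was at hand, so regions are given by mm9 coordinates, and neither the genes under them nor the identity of the sorted cells was checked.

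The 4 lists differed widely in extent. ISC replicate 1 held 17407 islands over 241 Mb, ISC replicate 2 6668 islands over 60.8 Mb, AE replicate 1 8232 islands over 80.0 Mb and AE replicate 2 11845 islands over 91.0 Mb. ChIP reads inside islands numbered from 1493464 (ISC replicate 2) to 6627853 (ISC replicate 1), and control reads from 1393876 to 5173199. Median island lengths were 10.4, 7.4, 7.0 and 5.2 kb in the same order of libraries. Of the length in ISC replicate 1, 56.8% was called in no other adult list, against 14.7% to 18.0% in the other 3 lists. ISC replicate 1 had no island on chromosome Y, where the other 3 lists had 12 to 16. ISC replicate 1 thus stood apart from the other libraries, and results are given at equal covered length as well. Each library had its own island calls, and the mark can be present below the calling threshold in windows that lie in no island. A mark carried by part of the cells and a weaker mark in all cells cannot be told apart in these sorted populations.

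Kept length was the largest class that both populations shared. It came to 25.8 Mb, 9.05% of all windows called in any adult list, and made up 42.4% of the ISC replicate 2 list, 32.2% of AE replicate 1, 28.3% of AE replicate 2 and 10.7% of ISC replicate 1. By calling pattern, only the length called in ISC replicate 1 alone was longer, at 137 Mb. Length in ISC replicate 1 and both AE lists but not in ISC replicate 2 came to 15.0 Mb, while length in ISC replicate 2 and both AE lists but not in ISC replicate 1 came to 0.524 Mb. Kept length was 40.8 Mb without ISC replicate 2, and 26.3 to 31.9 Mb without any of the other 3 libraries. Fewer libraries are then required, so the value can only grow.

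**Figure D1:**
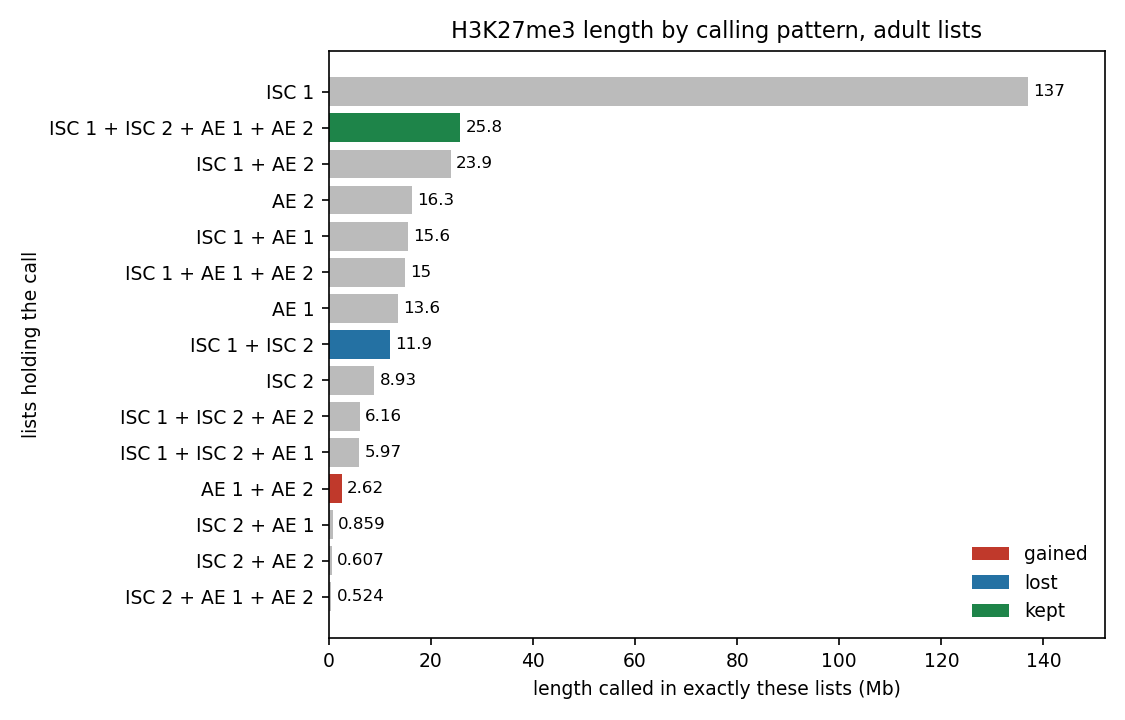
Length in Mb (horizontal axis) called in exactly the lists named on the vertical axis, for the 15 patterns of the 4 adult lists. Length in ISC replicate 1 alone (137 Mb) exceeds every other pattern; kept length (25.8 Mb), lost length (11.9 Mb) and gained length (2.62 Mb) are coloured.

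Kept stretches had a median length of 5.2 kb, with quartiles of 3.0 and 8.2 kb. Of the 3887 stretches, 668 reached 10 kb and 153 reached 20 kb, and those 153 carried 16.6% of the kept length. At the short end, 493 stretches stayed under 2 kb and held 1.99% of it. Kept stretches lay inside longer islands: the longest island over a stretch had a median length of 26.0 kb in ISC replicate 1, 9.4 kb in ISC replicate 2, 13.8 kb in AE replicate 1 and 10.0 kb in AE replicate 2.

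The longest kept stretch was 123.8 kb at chr6:52124801-52248600, and 1 unbroken island covered it in each of the 4 lists. These islands measured 188.4 and 141.0 kb in ISC and 149.4 and 124.0 kb in AE. They held 14815 and 4959 ChIP reads in ISC against 4059 and 3039 control reads, and 9270 and 5043 ChIP reads in AE against 3018 and 2523 control reads. The ChIP to control read ratio was therefore 3.65 and 1.63 in the ISC lists, and 3.07 and 2.00 in the AE lists. A ratio depends on the sizes of the ChIP and control libraries, so it was read only within its list, as a multiple of the median ratio of that list's islands. Median island ratios were 1.15 in ISC replicate 1, 1.04 in ISC replicate 2, 2.10 in AE replicate 1 and 1.32 in AE replicate 2. The chromosome 6 stretch stood at 3.19 and 1.57 times the list median in ISC and at 1.46 and 1.52 times in AE, above the median in all 4 lists.

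The second longest kept stretch spanned 76.6 kb at chr15:102775601-102852200. It lay in islands of 270.2 and 127.4 kb in ISC and 162.6 and 76.6 kb in AE. A stretch takes the ratio of the islands that cover it, including their reads outside the stretch. This ratio was 2.76 and 1.61 times the list median in ISC and 1.64 and 1.60 times in AE. The next, 65.4 kb at chr11:96108801-96174200, stood at 2.71 and 1.42 times in ISC and 1.37 and 1.4995 times in AE. The other long kept stretches were 55.8 kb at chr4:115589601-115645400, 45.6 kb at chr1:74813401-74859000, 45.6 kb at chr19:43653601-43699200 and 43.4 kb at chr11:117250601-117294000. They were followed by 42.6 kb at chr5:125772201-125814800 and by 38.8 kb each at chr5:28474201-28513000 and chr6:6797401-6836200. Over the 10 longest, the ratio ran from 1.64 to 3.19 times the list median in ISC replicate 1, from 1.12 to 1.66 times in ISC replicate 2, from 0.932 to 1.64 times in AE replicate 1 and from 1.14 to 1.60 times in AE replicate 2. The single value under the median was the chromosome 11 stretch at 117250601 in AE replicate 1.

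Ratios stood furthest above the list median in the longest kept stretches. Stretches of 20 kb or more had median ratios of 1.99 and 1.27 times the list median in ISC, and 1.18 and 1.27 times in AE. Stretches of 5 to 10 kb had 1.40 and 1.05 times in ISC and 1.001 and 1.06 times in AE. Over all kept stretches the medians were 1.42, 1.07, 1.02 and 1.08 times. ISC replicate 1 was the highest of the 4 lists in every length class; its list also holds the most islands outside the kept class, and these enter its median. In that list 96.9% of kept stretches lay above the list median, against 65.2% in ISC replicate 2, 55.0% in AE replicate 1 and 66.6% in AE replicate 2. All 4 lists placed 1439 stretches (37.0%) above their medians and 42 (1.08%) below.

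**Figure D2:**
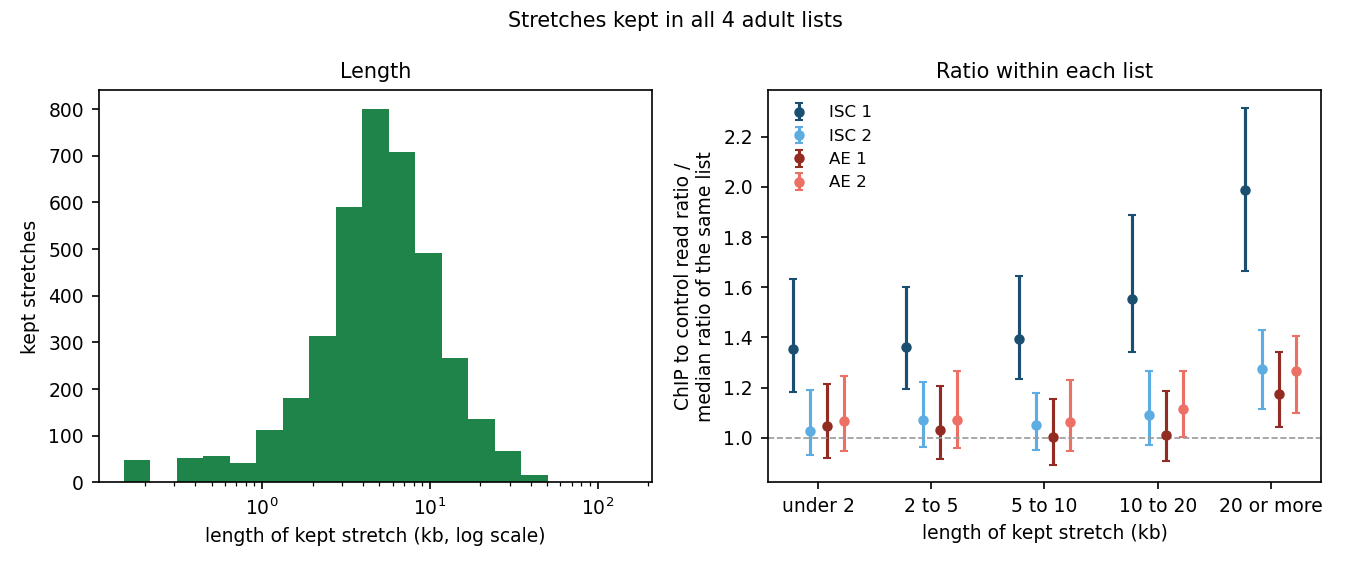
Left, number of kept stretches by length in kb on a log axis; right, ChIP to control read ratio of kept stretches divided by the median island ratio of the same list, by length class, with points at the median and bars to the quartiles. Stretches of 20 kb or more sit highest in all 4 lists (1.99, 1.27, 1.18 and 1.27 times the list median).

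Among the 2047 kept stretches of 5 kb or more, the 5 with the highest smallest multiple over the 4 lists were not the longest. The first was a 5.2 kb stretch at chr3:126569401-126574600, with a ratio of 3.497 in ISC replicate 1, 1.82 in ISC replicate 2, 6.60 in AE replicate 1 and 2.82 in AE replicate 2, or 3.05, 1.75, 3.14 and 2.14 times the list medians. Its control read density was low, at 0.601, 0.789, 0.449 and 0.538 times the list median, so its ratios rest on few control reads (56 in the AE replicate 2 island). Next came 16 kb at chr3:96129401-96145400, with multiples of 1.70 to 3.22. A neighbouring pair at chr4:88916401-88929600 and chr4:88934601-88943800 had the same multiples of 2.96, 1.89 and 1.88 in both ISC lists and AE replicate 1. Each of these 3 lists covered the pair with 1 island, while AE replicate 2 broke it in 2, at 1.68 times its median for both. The fifth was 26.8 kb at chr14:122858601-122885400, at 1.66 to 3.09 times.

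At the other end, a 30.2 kb stretch at chr17:34792601-34822800 had ratios of 1.57 and 1.02 times the list median in ISC and only 0.746 and 0.935 times in AE. The other 4 with the lowest smallest multiple were at chr15:101620201-101626800 and chr15:80114001-80122400, chr8:123402001-123423200 and chr12:86940601-86946000. In 4 of these 5 the lowest multiple came from AE replicate 1, between 0.746 and 0.757. On chromosome 12 it came from AE replicate 2, at 0.754. Control read density over these 5 stretches was 1.34 to 1.55 times the list median in AE replicate 1.

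The order of kept stretches was shared in part between all lists, more within than between populations by ratio but not by ChIP reads per kb. Across the 2047 stretches of 5 kb or more, Spearman's rho of the ratio was 0.601 between the ISC lists and 0.670 between the AE lists, and 0.510 to 0.579 in the 4 pairs of an ISC with an AE list. Replicates share their control reads, which enters the first 2 values. With ChIP reads per kb alone, rho was 0.575 and 0.577 within populations and 0.509 to 0.650 between them, highest for ISC replicate 1 with AE replicate 1. These values describe stretches of the same libraries, which are not independent replicates.

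Between stem cells and enterocytes, 2.62 Mb were gained (0.921% of the windows called in any adult list) and 11.9 Mb lost (4.19%). The gained and lost length of 14.54 Mb was set beside the 2 mixed splits, each of which sets 1 library of either population against the other 2. ISC replicate 1 with AE replicate 1 against the rest gave 16.2 Mb, and ISC replicate 1 with AE replicate 2 against the rest gave 24.7 Mb. The real split thus had the shortest total of the 3 (exact permutation over the 3 splits, p = 1.0; the smallest p possible is 0.333). In both mixed splits nearly all length lay on the side that held ISC replicate 1: 15.6 Mb (5.46% of called windows) against 0.607 Mb (0.213%), and 23.9 Mb (8.39%) against 0.859 Mb (0.302%). The lost length likewise lies on the side of ISC replicate 1, so the excess of losses over gains and the extent of that list move together, and their parts cannot be told apart.

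At equal covered length gains and losses were near even, but giving every list the same extent itself limits any excess on either side. When the islands of each list were ranked by ratio and taken until the list covered as much as ISC replicate 2, 5.56 Mb were gained and 5.39 Mb lost. Their total of 10.95 Mb was then the largest of the 3 splits, beside 7.66 and 6.58 Mb (exact permutation over the 3 splits, p = 0.333, the smallest possible). Ranked by ChIP reads per kb instead, 4.42 Mb were gained and 3.70 Mb lost, a total of 8.12 Mb between mixed totals of 6.99 and 8.83 Mb (exact permutation over the 3 splits, p = 0.667). Gains were 18.0% of the changed length in the lists as deposited, and 50.8% and 54.5% in these 2 settings. In the alternatives that left the extents of the lists unequal, they were 15.0% to 18.3%. With only the islands at or above the median ratio of their list, the total was 9.18 Mb beside 7.59 and 8.90 Mb. The place of the real split among the 3 therefore depended on how islands were chosen. Replicates share their control reads, which enter both choices by ratio, and the part of this was not tested. When a library was left out and the other of its group alone decided, gains were 17.7 Mb without ISC replicate 1, 3.15 Mb without ISC replicate 2, 18.96 Mb without AE replicate 1 and 16.3 Mb without AE replicate 2. Losses were 20.9 Mb without ISC replicate 1, 149 Mb without ISC replicate 2, and 17.9 and 18.1 Mb without AE replicate 1 and 2.

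**Figure D3:**
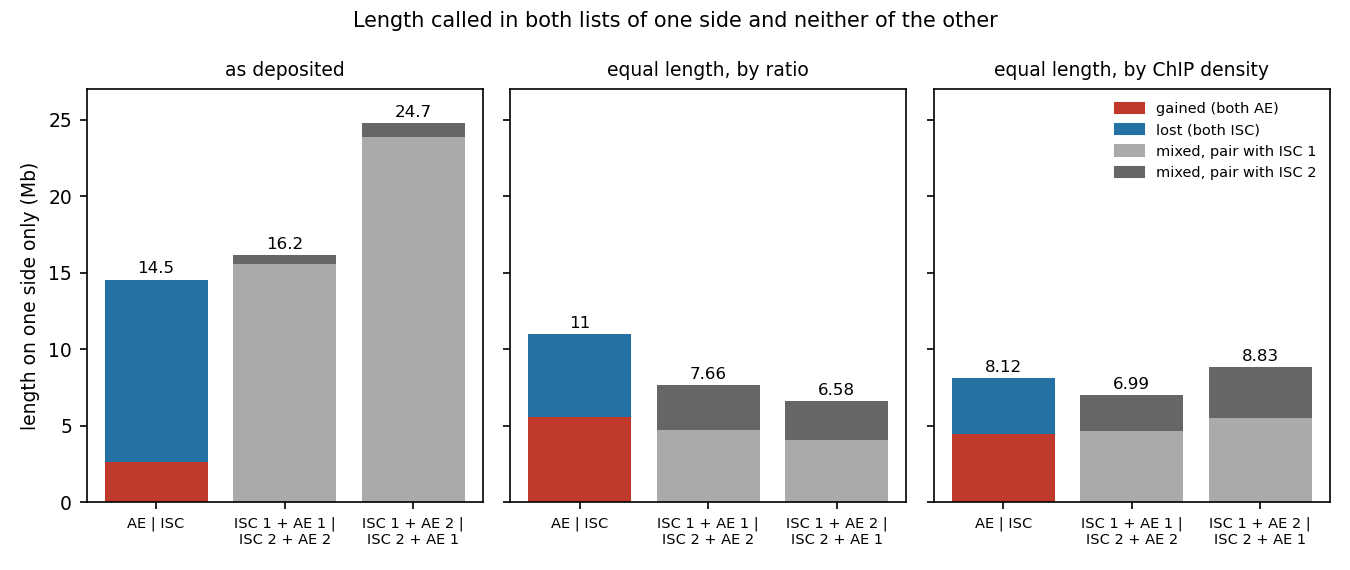
Length in Mb called in both lists of one side of a split and in neither list of the other, for the real split (AE against ISC, coloured) and the 2 mixed splits (grey), with the islands as deposited and at equal covered length by 2 rankings. The real split totals 14.54, 10.95 and 8.12 Mb and is the highest bar only in the middle panel.

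Gained stretches were short. Their median length was 1.4 kb, 101 of 1244 reached 5 kb, 11 reached 10 kb and none reached 20 kb. The longest, 17.0 kb at chr13:12990801-13007800, lay in islands of 36.0 and 17.0 kb in AE, with 1433 and 336 ChIP reads against 649 and 312 control reads. The nearest ISC islands were 374.8 kb away in replicate 1 and 44.4 kb away in replicate 2. Its ratio was 1.05 and 0.818 times the AE list medians. Of this stretch, E12.5 replicate 1 covered 100%, E12.5 replicate 2 2.35% and the E14.5 lists 95.3% and 92.9%.

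The next gain, 16.2 kb at chr4:146769601-146785800, had 2.05 and 2.03 times the median control read density of the AE lists and the low ratios of 0.771 and 0.768 times their medians. Stretches of 13.4 kb at chr19:58741201-58754600 and 13.2 kb at chr3:98062601-98075800 touched no embryonic island. The chromosome 19 stretch had the highest multiple of the 10, 1.46 in AE replicate 1, beside 0.880 in AE replicate 2, and an ISC replicate 1 island began or ended 1.2 kb away. The remaining 6 were at chr5:144139801-144151000, chr11:58406801-58417400, chr11:58209001-58219400, chr14:66245201-66255600, chr4:117801401-117811400 and chr10:61421201-61431200. In AE replicate 2, 9 of the 10 longest gains had a ratio below the list median, and in AE replicate 1 5 of 10. At equal covered length by ChIP reads per kb, 4 of these 10 were still gained over at least 50% of their length. The stretch at chr4:146769601-146785800, of high control density, was among them. At equal covered length by ratio it was 2 of 10, and with islands at or above the list median ratio 1 of 10.

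Lost stretches were longer, with a median of 2.4 kb, 981 of 3620 at 5 kb or more, 97 at 10 kb or more and 4 at 20 kb or more. The longest loss, 74.8 kb at chr11:3025401-3100200, had by far the most control reads. Its islands held 31061 and 28684 ChIP reads in ISC against 37069 and 37138 control reads, a control density 23.8 and 23.3 times the list median, and their ratios were 0.731 and 0.744 times the list median. All 4 embryonic lists covered 100% of it, with control densities of 19.6 to 21.2 times their medians. A 17.6 kb loss at chr9:3015201-3032800 shared these features: 2974 and 3164 ChIP reads against 3220 control reads in each ISC list, control densities of 8.77 and 8.76 times the median, and full coverage in all 4 embryonic lists. Both lie near the start of the coordinates of their chromosomes. Islands of more than 3 times the median control density held 1.18% of the lost length, 0.0686% of the gained and 0.0225% of the kept length.

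Apart from these, the longest losses had control densities near the list median, with 1 exception. A 24.4 kb loss at chr9:45373001-45397400 lay in islands with 746 and 511 ChIP reads in ISC against 670 and 588 control reads, ratios of 0.972 and 0.837 times the list medians. The nearest AE islands were 130.4 and 25.6 kb away. Losses of 23.6 kb at chr5:113053601-113077200, 21.8 kb at chr16:95759401-95781200 and 18.6 kb at chr12:86871201-86889800 had multiples of 0.980, 0.996 and 0.941 in ISC replicate 1 and 0.823, 0.914 and 0.838 in ISC replicate 2. The other 4 were at chr19:6564601-6582800, chr8:19960201-19978200, chr6:87465001-87481600 and chr13:54312001-54328400. The stretch on chromosome 8 was that exception, at 2.65 and 2.85 times the median control density. In ISC replicate 2, all 10 longest losses had a ratio below the list median, and in ISC replicate 1 8 of 10. At equal covered length by ChIP reads per kb, 3 of the 10 were still lost over at least 50% of their length. They were the 3 of high control density, at chr11:3025401-3100200, chr9:3015201-3032800 and chr8:19960201-19978200. At equal covered length by ratio it was 0 of 10, as it was with islands at or above the list median ratio.

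**Figure D4:**
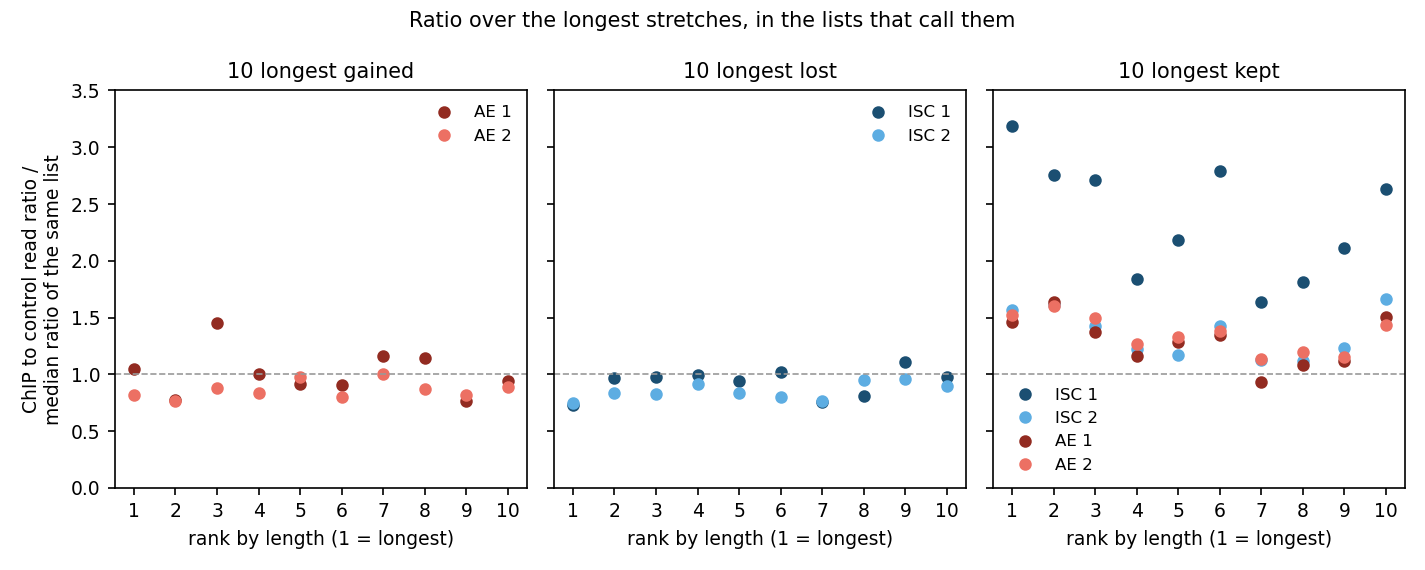
ChIP to control read ratio divided by the median island ratio of the same list, for the 10 longest gained, lost and kept stretches by rank, in the lists that call them. Kept stretches lie above 1 except for 1 value in AE replicate 1 (0.932), while 9 of 10 gains in AE replicate 2 and 10 of 10 losses in ISC replicate 2 lie below 1.

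Islands with changed but no kept length had lower median ratios than islands with kept length in each list, by least in AE replicate 1. In ISC replicate 1, islands with lost but no kept length had a median ratio of 1.18, those with kept length 1.57, and in ISC replicate 2 the values were 0.985 and 1.11. In AE replicate 2, islands with gained but no kept length had a median ratio of 1.34 and those with kept length 1.43. In AE replicate 1 they were nearly equal, at 2.10 and 2.13. Kept islands were also longer, for example 11.6 against 7.0 kb in AE replicate 1, and a longer island overlaps kept length more easily. Of the ISC replicate 1 islands with lost length, 1146 of 3032 also held kept length, as did 336 of the 1155 AE replicate 1 islands with gained length.

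Much of the change lay at island borders. A gained stretch that touched an island of an ISC list, or a lost stretch that touched an island of an AE list, was counted as a border; a stretch with no such island within 5 kb was counted as separate. Borders were 770 of 1244 gained stretches (61.9%) and 2222 of 3620 lost stretches (61.4%). They held 39.9% of the gained and 37.5% of the lost length. Separate stretches numbered 323 gained and 1037 lost, with 41.6% and 47.7% of the length and median lengths of 3.0 and 5.4 kb. The 4 sides of the mixed splits had 52.5% to 83.0% borders and 8.89% to 36.4% separate stretches, so the shares of the real split fell within the range that mixed pairs gave.

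Kept, lost and gained length differed in how often the embryonic lists called them, a measure that took no part in the classing. Kept length had to be called in all 4 adult lists, and gained or lost length in 2. Windows called readily in any library thus enter kept length more easily, and the part of this was not tested. The embryonic lists come from EpCAM-positive small-intestinal epithelium at 2 stages, E12.5 and E14.5, of the same mixed strain. Of the kept length, E12.5 lists called 48.8% and 63.9% and E14.5 lists 71.2% and 78.2%. For lost length these values were 11.8%, 19.4%, 22.4% and 32.7%, and for gained length 7.72%, 9.63%, 15.9% and 22.3%. All length called in any adult list had 11.6%, 17.0%, 19.3% and 26.4%, and 48.1% of that length was called in ISC replicate 1 alone. Kept length was therefore called more often, and gained length less often, than adult length in general in each of the 4 embryonic lists as deposited. Lost length lay above adult length in general in each of them, by least in E12.5 replicate 1. Neither the place of gains nor that of losses held in every setting. Without ISC replicate 1, both E14.5 lists called 27.8% of gained, 13.03% of lost and 25.6% of all adult length. Without ISC replicate 2, these shares were 18.7%, 7.27% and 16.6%. Without AE replicate 1 or AE replicate 2, lost length stayed above and gained length below all adult length by this measure. Gains that held their class in all 3 ways of choosing islands, described further on, were called at 22.5% and 32.8% in the E14.5 lists. The 19.3% and 26.4% of all adult length did not pass through that choice and are no like background. On the 4 sides of the mixed splits that did, the shares were 20.4% to 40.1% and 31.4% to 53.65%. These gains lay in the lower part of both ranges.

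No embryonic list called 68.6% of the gained, 56.2% of the lost and 17.3% of the kept length, against 64.5% of all adult length. On the 4 sides of the mixed splits this share was 57.1% to 62.8%, so gains lay above and losses below all of them. At equal covered length over the 8 lists by ratio the shares were 72.6%, 44.7% and 16.8%, with 45.5% to 60.2% on the mixed sides. By ChIP reads per kb they were 64.9%, 42.4% and 13.8%, with 45.3% to 59.1% on the mixed sides. In length that held its class in all 3 settings the pattern was not complete: 57.2% of gains and 37.7% of losses were called in no embryonic list, beside 31.2% to 55.9% on the mixed sides, so losses lay inside that range. The order of gains and losses turned around without ISC replicate 1, when 48.7% of gained and 66.3% of lost length was called in no embryonic list. Without ISC replicate 2, AE replicate 1 or AE replicate 2, the gained share was 61.9%, 78.6% or 80.5%, and the lost share 73.8%, 50.4% or 49.8%. The lost share thus exceeded the gained share also without ISC replicate 2. Leaving out a library changes both classes: without ISC replicate 1, the 15.0 Mb called in ISC replicate 1 and both AE lists count as gained, and length in ISC replicate 2 alone counts as lost. No test was made, since 2 libraries a group allow 3 splits only.

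**Figure D5:**
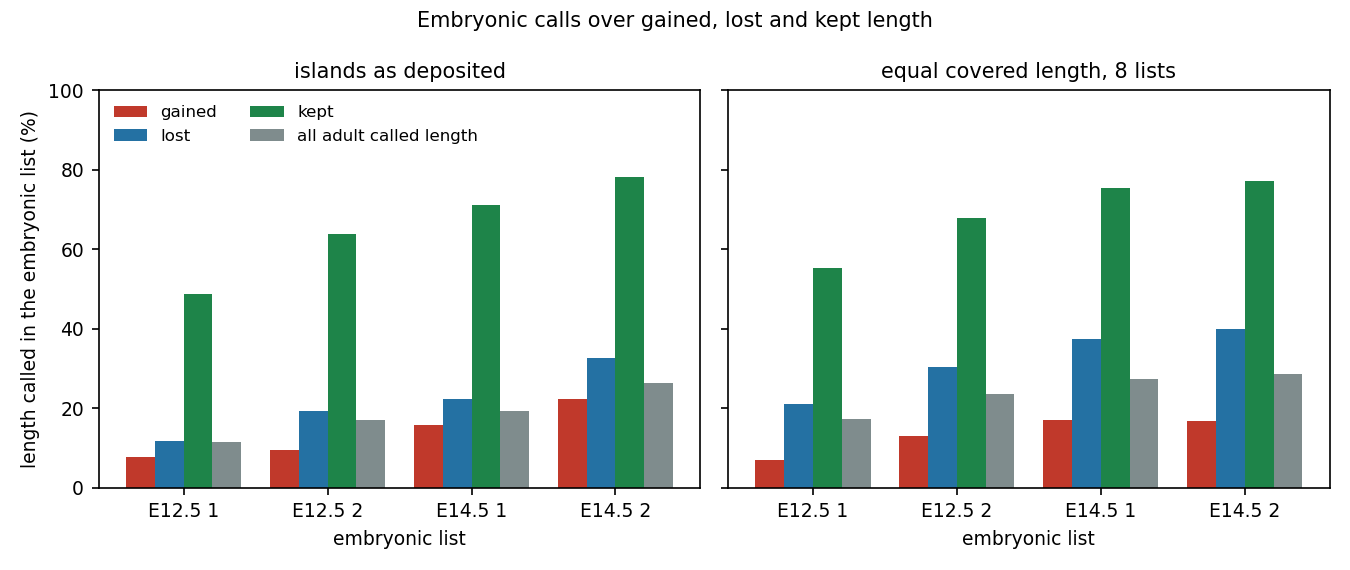
Percent of gained, lost and kept length, and of all length called in any adult list (grey), that lies in islands of each embryonic list, with islands as deposited (left) and at equal covered length over 8 lists by ratio (right). In all 4 embryonic lists the order is kept, lost, all adult length, gained; for E14.5 replicate 2 as deposited the values are 78.2%, 32.7%, 26.4% and 22.3%.

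Long kept stretches were called in the embryo more often than short ones. All 4 embryonic lists called 69.1% of the length in kept stretches of 20 kb or more, 53.8% at 10 to 20 kb, 35.2% at 5 to 10 kb, 20.7% at 2 to 5 kb and 10.6% under 2 kb. No embryonic list touched 7 of the 153 stretches of 20 kb or more, and 747 of all 3887. Of the 10 longest kept stretches, 9 were touched by all 4 embryonic lists. The exception was the 42.6 kb stretch at chr5:125772201-125814800, of which E12.5 lists covered 18.8% and 16.9% and E14.5 lists 0%. Its ratio was 1.81 and 1.12 times the list median in ISC and 1.08 and 1.198 times in AE. The 43.4 kb stretch at chr11:117250601-117294000 was covered in part, between 38.7% and 68.2%, by the embryonic lists. Longer stretches carry more reads and are called more readily in any library, and the part of length in this order was not tested.

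Chromosomes 15 and 19 held the largest kept shares of their own called length, 13.6% and 13.1%, against 9.05% over all chromosomes. Chromosome 11 followed with 11.5%, and chromosome 16 had 6.25%. Gained length was 1.87% of called length on chromosome 16 and 1.53% on chromosome 19, and between 0.564% and 1.32% on the other autosomes. Chromosome X held 0.580 Mb of called length in all, with 0.0120 Mb gained, 0.00480 Mb lost and 0.0190 Mb kept. The adult lists had 26 to 59 islands on chromosome X.

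Length that held its class in all 3 ways of choosing islands (as deposited, and at equal covered length by ratio and by ChIP reads per kb) was examined after the values had been seen. Kept length of 15.7 Mb, 60.8% of the kept total, did so, against 0.576 Mb of gains (21.95%) and 2.31 Mb of losses (19.3%). The sides of the mixed splits kept 8.37% to 52.7% of their length, a range that holds the shares of gains and losses. The changed total of 2.88 Mb stood beside 2.70 and 2.45 Mb for the mixed splits. The ranking by ratio among these settings uses the control reads that replicates share. The longest such gain was the 11.2 kb stretch at chr5:144139801-144151000, which adjoined an ISC replicate 1 island and lay 3.0 kb from an ISC replicate 2 island. It held multiples of 0.918 and 0.973 in AE, within islands of 40.8 and 45.8 kb. An 8.6 kb gain at chr15:61863001-61871600 had multiples of 1.32 and 1.06 in AE; it also adjoined an ISC replicate 1 island, while the nearest ISC replicate 2 island was 1938.6 kb away. The other 3 of the 5 longest were at chr11:58240801-58250800, chr3:121753801-121763000 and chr15:81599601-81608200, each adjoining an ISC replicate 1 island.

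The longest loss in all 3 settings was 15.2 kb at chr9:56463201-56478400. Its islands held 1504 and 692 ChIP reads in ISC against 1058 and 685 control reads, 1.24 and 0.972 times the list medians. An AE replicate 1 island adjoined it, and the nearest AE replicate 2 island was 0.6 kb away. A 14.4 kb loss at chr2:94117801-94132200 had multiples of 1.48 and 0.874, and a 12.8 kb loss at chr4:55616201-55629000 1.30 and 0.867. The last 2 of the 5 were at chr2:163171401-163183200 and chr9:95476601-95487800, the latter with multiples of 1.51 and 1.003. High multiples in ISC replicate 1 were set by the choice here, since equal covered length by ratio took 3400 of its 17407 islands but all 6668 of ISC replicate 2. E14.5 lists covered 53.9% and 84.2% of the first, 100% and 56.9% of the second and 43.8% and 100% of the third, and E12.5 lists 0% to 27.6% of these 3.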

How the data were processed

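ChIP-seq for H3K27me3 was made by the submitters from sorted cells. SICER 1.1, Bowtie 1.1.2, SAMtools 1.2 and bcl2fastq 1.8.4 are named, with the mm9 build, per the submitters' processing notes; island ends on chromosome 1 reach 197093800. Their parameters are not given in the sources used here. The deposited lists have no header; columns 1 to 3 give each island's interval. Columns 4 and 5 were taken, from their values, as the authors' count of ChIP reads and count of control reads in the island, made before deposit and not normalized. Later columns were not used. All borders lie on a 200 bp grid. Library totals are unknown, since reads are listed only inside islands, and windows outside them have no counts. Kept stretches have reads in all 4 lists, but no test of these counts across libraries was run. In the 17 intervals that the ISC lists share exactly, and the 41 of the AE lists, control reads were identical and ChIP reads differed.

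Lists were painted with Python 3.11.15, numpy 2.4.6 and pandas 2.3.3 (correlations with scipy 1.17.1). The code was tested on simulated islands. Over a stretch, reads were spread evenly along each island. Regions named are the 10 longest gained, lost and kept stretches, and the 5 kept stretches of 5 kb or more with the highest and the 5 with the lowest smallest multiple. Alternatives were equal covered length, islands at or above the list median ratio, longer islands or stretches, a limit on control density, filled gaps, autosomes alone and 1 library left out. Members, classes and tests were chosen with earlier results of these data known. The planned promoter counts and gene lists need an mm9 annotation and were not run. No sequences are printed, as no mm9 genome was at hand.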

Additional observations from a re-analysis of the deposited data

How the results depend on the processing

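Gained length (2.62 Mb as deposited) was 5.56 Mb at equal covered length by ratio and 4.42 Mb by ChIP reads per kb. It was 1.42 Mb with islands at or above the list median ratio and 1.04 Mb with islands of 10 kb or more. In windows with no island of the other side within 5 kb it was 1.28 Mb. Lost length (11.9 Mb) was 5.39, 3.70, 7.76, 5.88 and 6.94 Mb in the same order. The last setting drops single windows near such an island. The separate stretches described earlier were taken or dropped whole, and held 1.09 Mb of gains and 5.69 Mb of losses. Kept length (25.8 Mb) was 11.6 Mb with islands at or above the median ratio and 13.0 Mb with islands of 10 kb or more. With 1 library left out, gained length ranged from 3.15 to 18.96 Mb, lost length from 17.9 to 149 Mb and kept length from 26.3 to 40.8 Mb. Gained plus lost length minus the larger mixed split (-10.2 Mb) turned to 3.30 Mb at equal covered length by ratio and to 0.288 Mb with islands at or above the median ratio, and was -0.706 Mb by ChIP reads per kb; the cause was not tested. Length called in all 4 embryonic lists at equal covered length over 8 lists was 2.53% of gains (1.29% as deposited), 11.02% of losses (5.08%) and 10.7% of all adult length (6.03%). With 1 adult library left out, that share ranged from 0.679% to 7.49% of gains, 1.19% to 7.58% of losses, 30.1% to 42.4% of kept and 6.18% to 10.8% of all adult length. The share in no embryonic list ranged from 48.7% to 80.5% of gains, 49.8% to 73.8% of losses, 17.5% to 27.5% of kept and 54.6% to 64.1% of all adult length.

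Filling gaps of up to 1 kb changed nothing, since the smallest gap in any of the 4 lists is 1.2 kb. Autosomes alone, stretches of 2 kb or more and a control density of at most 3 times the median moved gained, lost and kept length by less than 1.5 times. The alternatives for length that holds its class in all 3 settings, for embryonic shares with 1 library left out or by ChIP reads per kb, and for equal covered length with 1 library left out were chosen after seeing the data; in the last, gains were 7.93 to 24.97 Mb and losses 9.34 to 27.4 Mb. No paired analysis was possible because no result comes from a test with residual spread: requiring a change in both same-numbered pairs gives the same windows as the rule itself. Depth outside islands is unknown, so a window not called may still carry the mark.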
